A study of Mus musculus with 16 samples.

Results

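The genes described are 41 named genes of the T cell, natural killer (NK) cell and innate lymphoid lineages, chosen by name for their known lineage roles. They comprise 16 transcription factor genes, 19 genes for surface receptors and their chains, 3 for T cell receptor signalling proteins and 3 for cytotoxic effectors. All 41 were found in the RefSeq gene table of GRCm38, where 21523 protein-coding genes of the autosomes and the X chromosome served as background. That table lists 40 of them as protein-coding and Zfp683 as a pseudogene.

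H3K27me3, the repressive trimethyl mark that the EZH2 subunit of Polycomb repressive complex 2 places on histone H3, was profiled by ChIP-seq in B cells purified with MACS CD43 microbeads from the spleens of C57BL/6 mice, 6 to 8 weeks of age. The mice were wild type (WT) or triple mutant for Ifih1, Rigi and cGAS, genes of cytosolic nucleic acid sensors, and the alleles were not further described. All cells were cultured for 48 hours with BAFF and IL-4 at 2 ng/mL each, either in the solvent DMSO or in 1 µM GSK343, an inhibitor of EZH2. Of 16 samples, 2 per genotype and treatment were ChIP and 2 were input. For each genotype and treatment 1 list of broad peaks, named as made from pooled duplicates, was analysed, so no spread between replicates is known and no difference below was tested. The peak names in the mutant lists carry a 1 after the treatment initial, so that a list made from replicate 1 alone cannot be told apart from a pooled one.

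T cells and B cells arise from shared lymphoid progenitors. T cell development depends on Notch signals and on factors such as TCF1, GATA3 and BCL11B, while the innate lymphoid programme depends on ID2 and other regulators. In B cells these alternative programmes are kept off, and PAX5 is the factor best known for holding the B cell identity. Polycomb repression typically acts at promoters rich in CG pairs and spreads from there into broad domains. RNA was not measured here, so whether each gene is silent in these cells was not tested.

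For each gene the share of the bases of its body plus 5 kb on each side that lay in a peak was measured in each list, and is called the covered share. Under DMSO the lists held 39495 peaks (84.3 Mb) for WT and 49803 (134 Mb) for the mutant, and under GSK343 11903 (21.1 Mb) and 10847 (16.95 Mb). Read depth is unknown, and a gene without a peak is one where the signal did not pass the peak caller's threshold. As a check of the cell type, 14 B cell genes, among them Cd79a, Pax5 and Ebf1, had no covered base in any of the 4 lists, and neither had 11 housekeeping genes.

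Among the lineage genes, cover ranged from none to the whole window, the latter at Eomes in mutant DMSO. Broad domains were found over regulators and over some surface genes. In WT DMSO, 27 of the 41 windows (65.9%) held a covered base, against 43.7% of all protein-coding genes. At least 50% of the window was covered at 5 genes (12.2%), Eomes, Tbx21, Cd3e, Id2 and Gata3, against 5.19% of all genes. In mutant DMSO, 30 windows (73.2%) held a covered base, with a background of 49.1%, and 8 (19.5%) were covered for at least 50%, with a background of 7.88%. Maf, Cd3g and Cd4 joined the 5 genes there. Under GSK343 only Eomes in WT stayed at 50% or more, with a background of 1.36%, and no gene did in the mutant, with a background of 0.999%. At least 10% was covered at 15 genes in WT DMSO (background 20.9%) and at 19 in mutant DMSO (background 26.8%). Under GSK343 the same level was reached by 8 genes in WT (background 8.6%) and by 5 in the mutant (background 7.41%).

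Transcription factor genes had a covered base more often than surface genes in each list. In WT DMSO 15 of 16 factor genes (93.75%) and 10 of 19 surface genes (52.6%) were touched by a peak, where the background is 43.7%. The counts were 14 and 6 in WT GSK343, where the background over all genes was 26.4%. For the mutant, DMSO gave 15 and 12 with a background of 49.1%, and GSK343 gave 13 and 4 with a background of 24.5%. The signalling genes gave 2 of 3 in WT DMSO, and the effector genes 0 of 3. A longer window has more bases that a peak can touch. Windows reached 745 kb among the factors and 101 kb among the surface genes. Neither these counts nor the background were matched for length.

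The median covered share was 12.0% for the factors and 1.25% for the surface genes in WT DMSO, a difference of 10.7 percentage points. In mutant DMSO the medians were 13.7% and 4.98%, a difference of 8.73 points. Under GSK343 the surface median was 0% in both genotypes, and the factor median was 5.37% in WT and 3.30% in the mutant. The median over all protein-coding genes was 0% in each list. Window length moved with class, with a median of 57.1 kb for factors and 20.9 kb for surface genes. Among windows of 15 to 60 kb, 6 factor and 18 surface genes, the difference was 34.2 points in WT DMSO and 33.2 in mutant DMSO. This range left out long factor genes of low share, such as Rora and Tox, and also the short Id2 and Maf. The factor median there in WT DMSO lay between Zbtb7b (15.02%) and Gata3 (54.7%), which are far apart. These values describe the named genes, which are not replicates of a condition, and Cd3d and Cd3g share part of their windows.

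**Figure D1:**
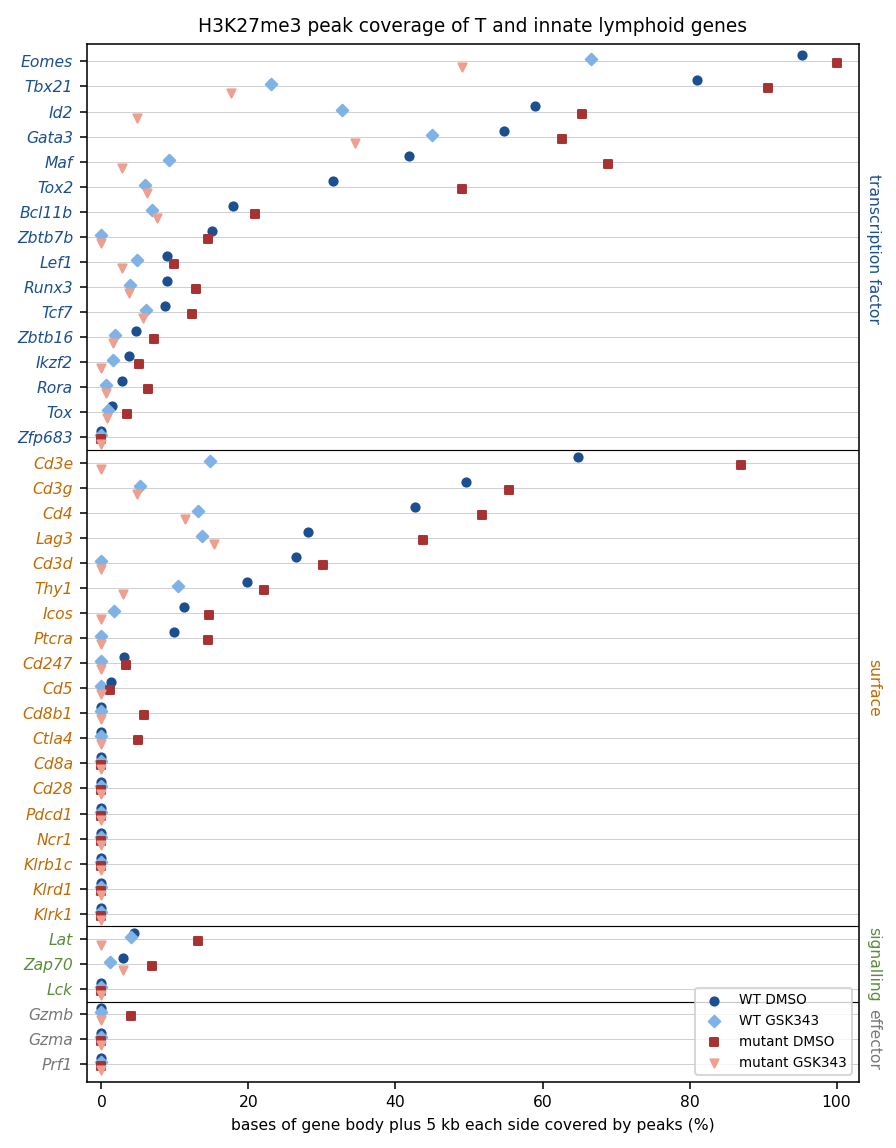
Covered share (percent of the bases of the gene body plus 5 kb on each side that lie in a peak) of the 41 genes, grouped by class and sorted by WT DMSO, with 1 point per peak list. Factor genes reach from 0% to 95.2% in WT DMSO, and 7 of the 19 surface genes sit at 0% in every list.

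Under DMSO the T-box factor genes had the highest covered shares of the 41 genes in both genotypes. Eomes, which encodes the T-box factor of memory CD8 T cells and mature NK cells, lies on chromosome 9 at 118478186 to 118486132. Its window was covered for 95.2% under DMSO and 66.6% under GSK343 in WT, and for 100% and 49.1% in the mutant. Only 0.939% of all protein-coding genes reached the WT DMSO share of Eomes. Its widest peak under DMSO was 21.4 kb in WT and 32.1 kb in the mutant, and under GSK343 3 and 4 peaks of at most 7.04 and 5.03 kb touched the window.

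Tbx21 encodes T-bet, the factor of Th1 and NK cells, and lies on chromosome 11 at 97098007 to 97115331. It was covered for 81.0%, 23.0%, 90.7% and 17.6% for DMSO and GSK343 in WT, then DMSO and GSK343 in the mutant, the order used for 4 values below. Both T-box genes were covered for most of their window under DMSO. The GSK343 share as a fraction of the DMSO share was 0.70 at Eomes and 0.285 at Tbx21 in WT. In the mutant the fractions were 0.491 and 0.194.

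Among the early T cell factors, Gata3 carried a wide domain and the others shorter peaks. Gata3, required from the first T cell stages through Th2 and innate type 2 cells, lies on chromosome 2 at 9857078 to 9887953. Its covered share was 54.7%, 44.9%, 62.7% and 34.5%. The widest DMSO peak, 33.3 kb in WT and 40.3 kb in the mutant, reached from 25.7 and 29.4 kb upstream of its start site to 7.63 and 10.9 kb downstream. Start sites here are the outermost entries of the RefSeq promoter table, and 14 of 29 lie inside the gene body of the gene table. That of Gata3 lies 9.35 kb inside, so that part of the upstream stretch is gene body. Among the genes covered for at least 10% under DMSO, Gata3 had the highest GSK343 fraction in both genotypes, 0.820 in WT and 0.550 in the mutant.

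Tcf7, which encodes TCF1, a factor that opens T cell genes downstream of Notch, was covered for 8.70%, 6.11%, 12.3% and 5.62%. In a window of 46.9 kb its only WT DMSO peak was 4.08 kb wide, from 1.81 kb upstream to 2.27 kb downstream of the start. The WT GSK343 peak, 2.87 kb wide, also spanned the start. Lef1, its relative, was covered for 8.97%, 4.80%, 9.84% and 2.78%, with its widest peak at the start (9.04 kb in WT DMSO). Bcl11b, needed for commitment to the T cell fate, was covered for 17.9%, 6.87%, 20.8% and 7.55%. It had 1 peak at the start (11.8 kb in WT DMSO) and another inside the gene from 21.0 to 27.9 kb downstream (6.83 kb).

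Regulators of innate lymphoid and innate-like T cells differed widely. Id2, an inhibitor of E proteins required for NK and innate lymphoid cells, was covered for 59.0%, 32.8%, 65.4% and 4.80%. Its covered share under GSK343 differed by more percentage points between the genotypes than that of any other of the 41 genes. Tox2, an HMG-box gene, was covered for 31.5%, 5.93%, 49.1% and 6.17%. Tox2 had the greatest covered length of the 41 genes under DMSO, 41.2 kb in WT and 64.3 kb in the mutant, against 7.77 and 8.09 kb under GSK343. Its paralogue Tox, needed for CD4 T cell and NK development, had shares of 1.48%, 0.867%, 3.42% and 0.726% in a window of 315 kb.

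Tox and the other long regulator genes Rora, Zbtb16 and Ikzf2 had low shares, each with a WT DMSO peak over an end of the gene. Rora, the nuclear receptor gene of innate type 2 cells with a window of 745 kb, had 2.77%, 0.603%, 6.29% and 0.617%. Zbtb16, which encodes PLZF of NKT cells, had 4.66%, 1.82%, 7.17% and 1.55%. Ikzf2, which encodes Helios, had 3.69%, 1.62%, 5.06% and 0%. In contrast Maf, a compact gene for a factor of T helper cells, had 41.8%, 9.20%, 68.9% and 2.84%. Zfp683, which encodes Hobit of tissue-resident lymphocytes, was the factor gene without a covered base in each list, and its nearest WT DMSO peak lay 6.2 kb away.

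The pair of factors that divides CD4 from CD8 T cells had no start site in a peak in any list. Zbtb7b (ThPOK) was covered for 15.02% and 14.5% under DMSO in WT and mutant and for 0% under GSK343 in both. No base of its body was in a DMSO peak: the cover lay in the flanks, and 2.18 of its 3.91 kb in WT lay in the body of its neighbour Dcst2. Runx3 was covered for 8.95%, 3.92%, 12.9% and 3.77%. Its peak lay inside the gene, from 17.7 to 23.7 kb downstream of the outermost start in WT DMSO, and was present in the 4 lists without reaching either of the 2 start sites in the table.

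**Figure D2:**
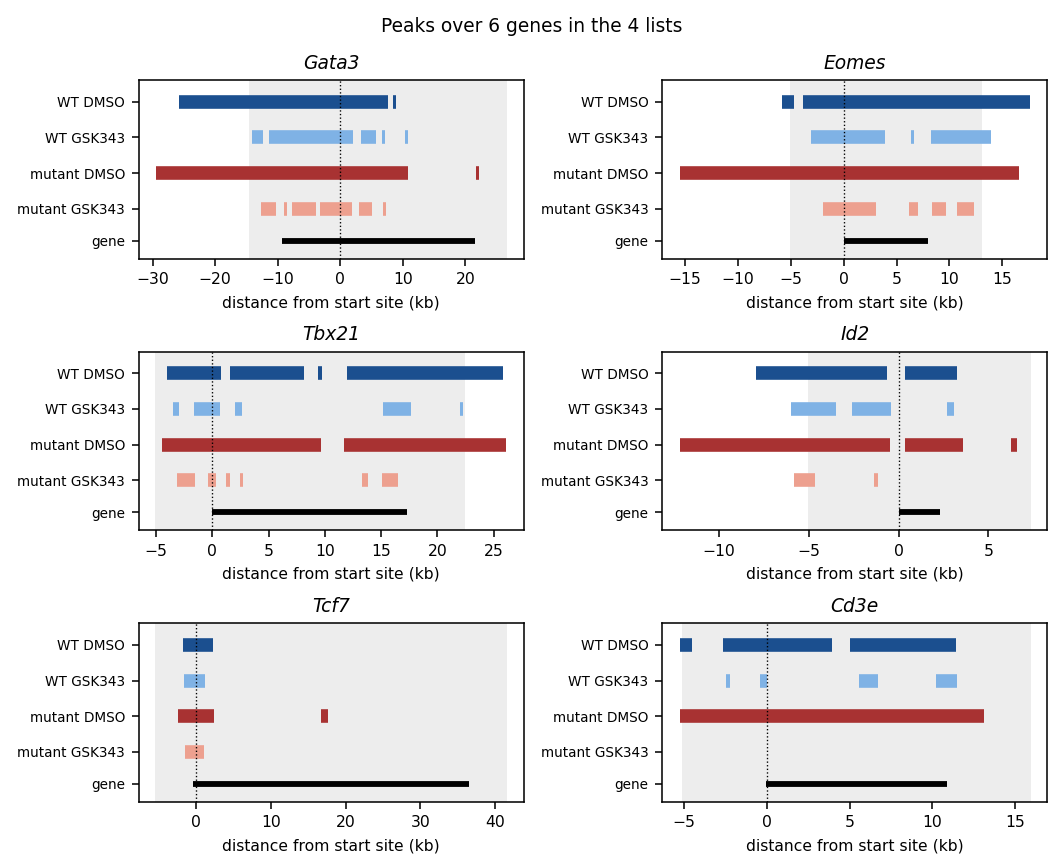
Peaks of the 4 lists over 6 genes by distance from the start site in kb, drawn in the direction of transcription, with the gene as a black bar, the measured window in grey and a dotted line at the start. Gata3 and Eomes have a wide DMSO domain and several narrower peaks under GSK343, the peak of Tcf7 sits on its start in each list, and Cd3e has no peak in mutant GSK343.

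Among the surface genes, Cd3e and Cd3g, chains of the T cell receptor complex, had the highest covered shares under DMSO. Cd3e, on chromosome 9 at 44998735 to 45009663, was covered for 64.8%, 14.7%, 86.9% and 0%. Cd3g, which lies on the same chromosome at 44969572 to 44980431, was covered for 49.6%, 5.30%, 55.4% and 4.79%. Cd3d, next to it, was covered for 26.5% and 30.1% under DMSO and for 0% under GSK343, and 3.66 of its 4.05 kb in WT DMSO lay in the body of Cd3g. All 3 genes of the cluster had lower shares under GSK343 than under DMSO in both genotypes. The mutant DMSO peak over Cd3e was 18.4 kb wide, against 6.56 kb for the widest of 3 WT peaks.

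The partners of CD3 lay mostly outside peaks. Cd247, the zeta chain, was covered for 3.03% and 3.33% under DMSO. Ptcra, the pre-T alpha chain, was covered for 9.88% and 14.6% under DMSO. Neither had a covered base under GSK343. The kinase gene Lck had none in any list. Zap70 had 2.92%, 1.19%, 6.89% and 2.95%, from 1 peak past the end of the gene. Lat, the membrane adaptor, had 4.39%, 4.06%, 13.1% and 0%.

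The coreceptor genes differed. Cd4 was covered for 42.6%, 13.2%, 51.7% and 11.4%, while Cd8a had no covered base in any list and Cd8b1 1 peak, in mutant DMSO (5.77%). The widest Cd4 peak, 21.3 kb in WT DMSO, extended beyond the window on the side of Gpr162, whose body held 4.50 of the 14.3 kb counted. Under GSK343 the body of Cd4 itself had no covered base in either genotype, and the cover counted lay beside it. Lag3, a CD4-related inhibitory receptor further along chromosome 6, was covered for 28.1%, 13.7%, 43.8% and 15.4%. Of its 5.09 kb in WT DMSO, 2.45 kb lay in the neighbour Ptms.

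Costimulatory and inhibitory receptors differed from gene to gene. Cd28 and Pdcd1 had no covered base in any list, with the nearest WT DMSO peak 82.5 and 27.5 kb away. Ctla4, between Cd28 and Icos on chromosome 1, had 1 short peak in mutant DMSO (4.98%). Icos was covered for 11.2%, 1.77%, 14.6% and 0%, chiefly around its lower-coordinate end. Thy1, a glycoprotein of T cells, was covered for 19.9%, 10.5%, 22.1% and 2.87%. Cd5, also found on a subset of B cells, had 1.25% and 1.1% under DMSO from 1 peak of under 1 kb, and none under GSK343.

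No peak touched the NK receptor genes Ncr1, Klrb1c, Klrd1 and Klrk1 in any of the lists. The nearest WT DMSO peak lay 39.4 kb from Ncr1, 298 kb from Klrb1c, 52.5 kb from Klrd1 and 74.7 kb from Klrk1, the last 3 on chromosome 6. The cytotoxic genes Gzma and Prf1 had none either, and Gzmb had 1 peak of 0.548 kb in mutant DMSO (4.06%). No effector or NK receptor gene held a covered base in WT DMSO, where 43.7% of all protein-coding genes did. Absence of a peak was thus also the more common state over all genes. The effector windows were short, with a median of 16.9 kb.

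Start sites were examined in the 29 genes for which the RefSeq promoter table (GRCm38.p6) holds an entry, 11 of them factors and 12 surface genes. A start site lay in a peak in WT DMSO at 8 of 11 factors and at 2 of 12 surface genes, Cd3e and Cd3g, against 20.1% of 17274 protein-coding genes. In WT GSK343 the counts were 8 and 1, with a background of 13.7%. The Cd3e peak counted there reached the start site by its last base. In the mutant they were 8 and 2 under DMSO (background 22.1%) and 6 and 0 under GSK343 (background 12.7%). The factors without a start in a WT DMSO peak were Zbtb7b, Runx3 and Id2. Within 2.5 kb of the outermost start, the median covered share of the 11 factors was 83.8% under DMSO and 57.3% under GSK343 in WT, and 100% and 49.99% in the mutant, while the surface median was 0% in each.

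The promoters of the classes differ in sequence. In the window from 250 bases before to 50 after the start, factor genes had a median of 21 CG pairs (8 to 45) and surface genes a median of 3 (0 to 8), against 14 over all genes. The number of factors and surface genes with fewer than 5 was 0 and 9. The most pairs were found at Tcf7 (45), Tox2 (38) and Rora (28), whose start sites lay in a peak in each list. The 250 bases before the table's start are shown, 5′ to 3′ on the strand of the gene, for the 3 genes with the most and the 3 with the fewest CG pairs among those whose stretch lies outside every gene body, to let the contrast be seen. That condition leaves out Tcf7, Tox2, Rora and Gata3 among the genes richest in CG pairs, and Cd3d, with 1 pair, among the poorest. CG pairs, which read the same on both strands, are in capitals.

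Tbx21, chr11:97115332-97115581, minus strand: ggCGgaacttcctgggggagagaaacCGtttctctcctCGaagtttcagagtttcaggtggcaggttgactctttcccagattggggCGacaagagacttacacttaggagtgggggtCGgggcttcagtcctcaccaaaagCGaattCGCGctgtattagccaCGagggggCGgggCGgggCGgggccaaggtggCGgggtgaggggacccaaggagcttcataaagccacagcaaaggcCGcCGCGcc
Id2, chr12:25096093-25096342, minus strand: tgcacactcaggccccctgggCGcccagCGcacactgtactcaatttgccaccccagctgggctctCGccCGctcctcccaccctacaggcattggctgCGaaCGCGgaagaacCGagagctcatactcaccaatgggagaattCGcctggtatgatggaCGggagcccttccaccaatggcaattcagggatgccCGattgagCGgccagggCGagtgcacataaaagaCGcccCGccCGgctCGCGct
Lef1, chr3:131110047-131110296, plus strand: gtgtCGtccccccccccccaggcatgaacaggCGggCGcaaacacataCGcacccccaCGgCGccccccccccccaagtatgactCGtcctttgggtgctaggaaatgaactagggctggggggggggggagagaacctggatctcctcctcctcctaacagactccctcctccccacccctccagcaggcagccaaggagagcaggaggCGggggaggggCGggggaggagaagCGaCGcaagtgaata
Klrb1c, chr6:128788642-128788891, minus strand: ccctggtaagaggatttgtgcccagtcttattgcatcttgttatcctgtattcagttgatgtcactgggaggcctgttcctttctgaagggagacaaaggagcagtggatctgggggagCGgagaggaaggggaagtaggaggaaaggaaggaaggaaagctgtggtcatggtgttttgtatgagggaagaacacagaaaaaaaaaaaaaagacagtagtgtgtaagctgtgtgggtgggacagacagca
Ptcra, chr17:46763713-46763962, minus strand: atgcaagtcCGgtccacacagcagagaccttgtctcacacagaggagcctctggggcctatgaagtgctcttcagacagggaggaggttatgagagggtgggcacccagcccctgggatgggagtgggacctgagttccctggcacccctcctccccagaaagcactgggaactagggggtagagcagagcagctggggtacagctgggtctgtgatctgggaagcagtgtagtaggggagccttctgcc
Ncr1, chr7:4337465-4337714, plus strand: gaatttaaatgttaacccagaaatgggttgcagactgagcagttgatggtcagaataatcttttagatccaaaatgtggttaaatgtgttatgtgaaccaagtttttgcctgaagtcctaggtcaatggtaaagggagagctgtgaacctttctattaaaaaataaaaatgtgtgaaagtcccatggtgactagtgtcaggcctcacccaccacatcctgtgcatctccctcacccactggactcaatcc

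The printed stretch holds 16 CG pairs at Tbx21, 18 at Id2 and 11 at Lef1. It holds 1 each at Klrb1c and Ptcra and 0 at Ncr1. The full windows of Tbx21 and Id2 have 21 pairs each, a number reached by 34.1% of all promoters, and that of Lef1 has 18. At most 1 pair was found in 12.0% of promoters, and 5.01% had 0. In WT DMSO the starts of Tbx21 and Lef1 lay in a peak and that of Id2 between a pair of peaks, while none of the 3 poor ones lay in a peak. Of the 5 kb around the start, 83.8% was covered at Tbx21, 81.7% at Lef1, 80.2% at Id2, 13.1% at Ptcra and 0% at Klrb1c and Ncr1, and 30.7% at Cd3d, which is not shown.

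Over all genes, a start site lay in a WT DMSO peak at 8.84% of promoters with fewer than 5 CG pairs, 24.4% of those with 5 to 9 and 29.3% of those with 10 to 14. The share was 24.6% at 15 to 19 pairs, 20.7% at 20 to 24 and 24.5% at 25 or more. It thus did not rise steadily above 4 pairs. In WT GSK343 the shares were 2.69%, 12.7%, 20.3%, 18.9%, 16.8% and 20.5% in the same bins. Among the lineage genes with 5 to 9 pairs, the starts of Bcl11b and Cd3e lay in a WT DMSO peak, and those of Zbtb7b, Runx3, Ctla4, Pdcd1, Lck, Zap70, Gzma and Prf1 did not. CG content and class go together here, and their parts in the covered share were not tested.

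**Figure D3:**
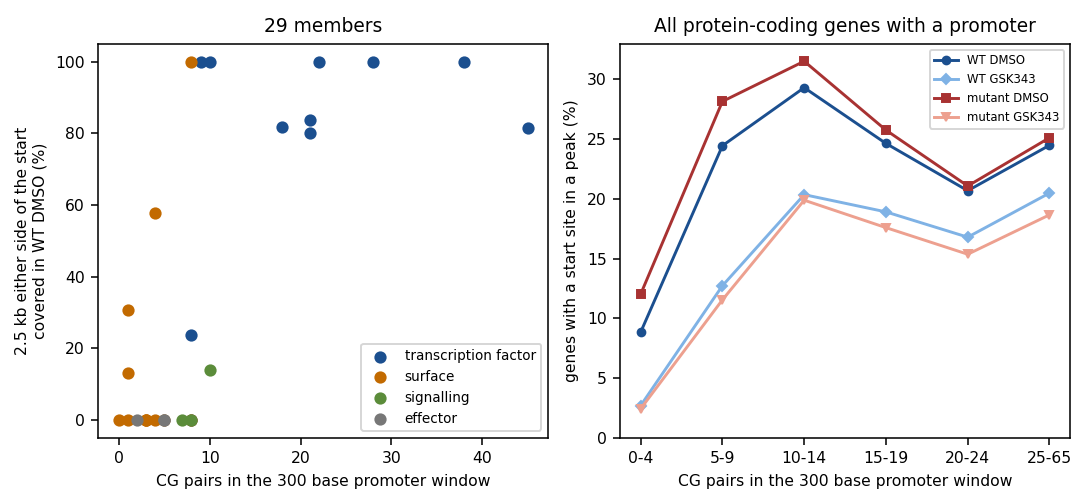
Left, CG pairs in the 300 base promoter window against the covered share (percent) within 2.5 kb of the start in WT DMSO for 29 genes, coloured by class. Right, percent of protein-coding genes with a start site in a peak by number of CG pairs, 1 line per list, lowest in the bin of 0 to 4 pairs (8.84% in WT DMSO).

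Less of these windows lay in peaks in the GSK343 lists than in the DMSO lists. Over the joined windows of the 41 genes the covered length in WT was 259 kb under DMSO and 96.3 kb under GSK343, a ratio of 0.372, and 361 and 72.1 kb in the mutant, a ratio of 0.200. Over all protein-coding windows the ratios were 0.311 and 0.177. For the factors the length was 200.03 kb under DMSO and 81.7 kb under GSK343 in WT, a ratio of 0.409, and 282 and 63.1 kb in the mutant, 0.224. For the surface genes it was 57.1 and 13.5 kb in WT, a ratio of 0.237, and 74.2 and 8.05 kb in the mutant, 0.108. When peaks with a fold under 3 were left out, the WT ratios of factors and surface genes were 0.455 and 0.448, nearly equal. The lists also differ in how readily a peak is called. At Cd3e a peak of fold 2.66 had a −log10 q-value of 2.30 in WT DMSO. A peak there of fold 2.67 had 1.18 in WT GSK343. A region of equal fold may thus pass in 1 list and be missed in another, and the part of this in the ratios was not tested.

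By gene, 15 had at least 10% covered in WT DMSO, and 11 of them had at most 0.5 of that share in WT GSK343. The background was 75.7% of such genes. Gata3, Eomes, Id2 and Thy1 were above 0.5. In the mutant 18 of 19 such genes had at most 0.5 (background 90.4%), Gata3 being the exception. No covered base was left under GSK343 at 2 of 15 in WT (Zbtb7b and Cd3d, background 17.9%) and at 6 of 19 in the mutant (background 33.2%). Those 6 were Zbtb7b, Cd3e, Cd3d, Ptcra, Icos and Lat. These shares lie close to those of all genes.

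**Figure D4:**
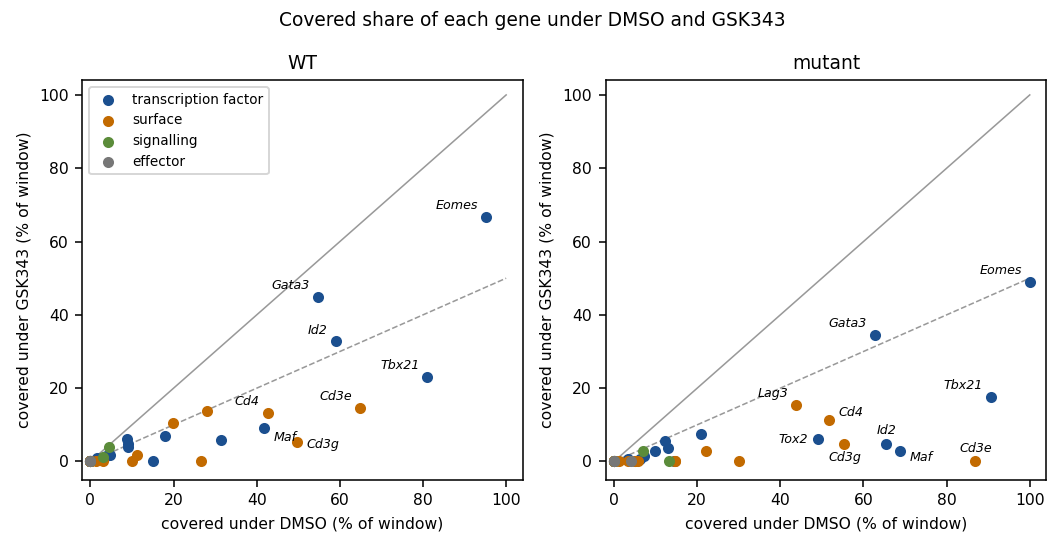
Covered share (percent of window) of each gene under DMSO on the x axis and GSK343 on the y axis, for WT (left) and mutant (right), coloured by class. The solid line marks equal shares and the dashed line a GSK343 share of 0.5 of the DMSO share. Among the labelled genes, Gata3, Eomes and Id2 lie above the dashed line in WT and Gata3 alone in the mutant.

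The genotypes differed in opposite directions under the 2 treatments. Under DMSO 28 of the 30 genes covered in either genotype had the higher share in the mutant, the exceptions being Zbtb7b and Cd5, against a background of 85.6%. Under GSK343 5 of 22 did, Bcl11b, Rora, Tox2, Lag3 and Zap70, against 34.1%. The mutant to WT ratio of covered length was 1.40 under DMSO and 0.749 under GSK343, and over all protein-coding windows 1.47 and 0.834. Cd8b1, Ctla4 and Gzmb were touched under DMSO in the mutant list alone, and Ikzf2, Cd3e, Icos and Lat under GSK343 in the WT list alone. The direction over the lineage genes was thus that of all genes, and a difference in depth between the lists cannot be told apart from genotype.

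**Figure D5:**
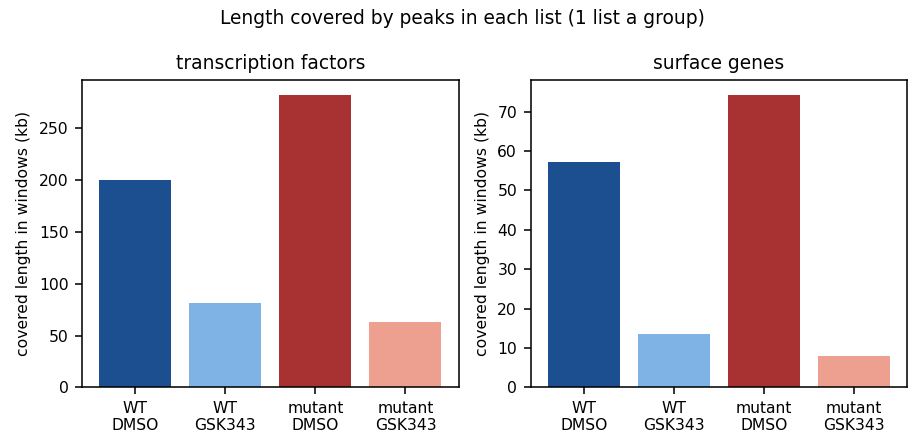
Length in kb covered by peaks over the joined windows of the 16 transcription factor genes (left) and 19 surface genes (right) in the 4 lists, with separate y axes that start at 0; each bar is 1 list without replicates. Both classes are highest in mutant DMSO (282 and 74.2 kb) and lowest in mutant GSK343 (63.1 and 8.05 kb).

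The other T and NK genes named for comparison were covered about as often as all genes, or less. Whether they are silent in B cells was not measured, so these counts describe the named genes only. Of 14 further regulators, 7 had a covered base in WT DMSO (background 43.7%) and 4 in WT GSK343 (background 26.4%). The highest WT DMSO share was that of Nfil3, a factor of NK and innate lymphoid development (40.5%, 13.7%, 55.1% and 1.60%). Hes1 and Runx1 had none in any list. Of 18 further surface and effector genes, 3 had a covered base in WT DMSO, 4 in mutant DMSO (background 49.1%) and 0 in either GSK343 list. Il7r, the interleukin 7 receptor, had the highest WT DMSO share of them (6.21%), and Cd2 and Ifng had none in any list. By comparison, 9 of 14 myeloid and erythroid genes were covered in WT DMSO (background 43.7%), with a median share of 13.8%. Cd14 (92.7%) and Gata2 (81.6%) had the highest shares, while Spi1, Gata1, Itgam and Csf1r had no covered base in any list.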

How the data were processed

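The data were 4 lists of broad H3K27me3 peaks, 1 per genotype and treatment, with the group read from the prefix of the peak names. Per the submitters' processing notes, Bowtie2 2.4.2, SAMtools 1.12, MACS2 2.2.7.1, bedtools 2.29.2, deepTools 3.5.1 and the build mm10 (GRCm38) were used; settings are not given in the sources used here. The folder in the peak names refers to pooled duplicates, and the file names say that the authors took out blacklisted regions. The fold of each peak (a ratio of ChIP over background) and the −log10 of its p-value and q-value are as deposited by the authors. They were used to filter or describe peaks within a list, and lists filtered in this way were also compared with each other. The values themselves were compared between lists only for Cd3e peaks in WT. Depth is unknown.

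Gene positions came from the RefSeq table of GRCm38.p6, counted from 1. Left out of the background were 108 protein-coding genes at positions up to 3 Mb, which are those of contigs. The covered share was the percent of the bases of gene body plus 5 kb on each side inside peaks. With 1 list per group no test was made. The genes, lists, thresholds (any base, 10%, 50%) and alternatives were chosen with earlier results of these data known. All 41 genes are named, with 4 values for each factor and for each other gene with at least 10% covered under DMSO. Promoters are shown for the 3 genes with the most and the 3 with the fewest CG pairs whose 250 bases before the start lie outside every gene body, a condition added after the values were seen.

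The coverage code, in Python 3.11.15 with numpy 2.4.6, pandas 2.3.3 and matplotlib 3.10.9, gave covered bases equal to those of bedtools 2.31.1 in 86092 of 86092 windows checked. On simulated data it recovered 200 of 200 windows.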

Additional observations from a re-analysis of the deposited data

Results flagged for a closer look

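The genotype difference had opposite signs under DMSO and GSK343 for the covered length of the lineage genes. With 1 list per group, no test of that reversal could be made and the difference was not tested. The mutant to WT ratio under GSK343 was 0.749 for the 41 genes, 0.773 for the factors and 0.594 for the surface genes, while under DMSO it was 1.40, 1.41 and 1.30.

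The same opposite signs were seen for 13 of the 19 genes with at least 10% covered under DMSO in either genotype (68.4%), and for 46.4% of the 5868 such protein-coding genes. Over all protein-coding windows the ratio of covered length was 1.47 under DMSO and 0.834 under GSK343, so the same reversal is seen there. Mutant minus WT under GSK343, in percentage points of the window, was -28.0 for Id2, -17.6 for Eomes, -14.7 for Cd3e, -10.4 for Gata3, -7.59 for Thy1, -6.36 for Maf and -5.42 for Tbx21. It was -4.06 for Lat, -1.77 for Icos, -1.74 for Cd4, -0.51 for Cd3g, -0.49 for Tcf7 and -0.15 for Runx3.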

How the results depend on the processing

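The 12 alternatives gave 228 values for 24 results. Of the values, 190 stayed within 1.5 times the reported value, 38 moved further and 0 changed direction. Numbers of genes have no direction, so only class differences and length ratios could have changed it. No paired analysis was possible because the lists hold no values per replicate, and for that reason no replicate could be left out. Apart from settings that use fewer genes or bases by construction, the cause was not tested. With 1 kb as the least peak width, with equal numbers of peaks by p-value (10847 per list), with the factors set against all 25 other genes, and with Cd3d left out for its shared window, every value stayed.

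With 2.5 kb either side of the start (29 genes) the number of genes with a covered base was 15 under DMSO and 11 under GSK343 in WT, and 16 and 9 in the mutant, the order used below. At least 50% was covered at 11, 7 and 5 genes in WT DMSO, WT GSK343 and mutant GSK343. Factors exceeded surface genes by 83.8, 57.3, 100 and 49.99 points in the 4 lists. The GSK343 to DMSO ratio was 0.603 for all genes, 0.703 for factors and 0.0786 for surface genes in WT, and 0.434, 0.550 and 0 in the mutant. The mutant to WT ratio of surface genes under GSK343 was 0.

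With the gene body alone the WT GSK343 difference between the classes was 3.19 points and the mutant GSK343 to DMSO ratio of surface genes 0.0589. With 10 kb flanks, 0 genes reached 50% in WT GSK343, and the mutant DMSO difference was 13.5 points. Without bases in other genes (40 genes, since Gzma lies inside Cdc20b), the mutant GSK343 to DMSO ratio of surface genes was 0.0444 and their mutant to WT ratio under GSK343 0.336. With a −log10 q-value of at least 2, the WT GSK343 difference was 2.55 points.

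With a fold of at least 3, 3 genes in WT DMSO and 5 in mutant DMSO reached 50%. The class difference was 2.55 points in WT GSK343 and 1.80 in mutant GSK343, and the GSK343 to DMSO ratio of surface genes was 0.448 in WT and 0.200 in the mutant. With peaks closer than 3 kb joined, 8, 2 and 1 genes reached 50% in WT DMSO, WT GSK343 and mutant GSK343. With windows of 15 to 60 kb the class difference was 34.2, 14.6, 33.2 and 11.6 points in the 4 lists.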

Other observations

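At some factor genes the start site itself lay in a short gap between peaks, a pattern picked out after the values were seen. At Id2 the flanking peaks ended at -0.642 kb and began at 0.347 kb from the start in WT DMSO, and at -0.463 and 0.375 kb in mutant DMSO. At Lef1 the mutant GSK343 peaks ended at -0.077 kb and began at 0.829 kb from the outermost start, which a single peak of 11.3 kb spanned in mutant DMSO. At Bcl11b, whose table start lies 0.731 kb inside the gene body, the mutant GSK343 peaks ended at -0.999 kb and began at 0.159 kb, and a peak of 13.9 kb spanned the start in mutant DMSO.

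Within the lists, the highest authors' fold over the windows was 4.19 in WT DMSO (Tox2), 3.84 in WT GSK343 (Runx3), 4.60 in mutant DMSO (Zbtb16) and 3.84 in mutant GSK343 (Bcl11b). The lowest in WT DMSO among the 27 genes with a peak was 2.34 (Cd5).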
